A study of Mus musculus with 2 samples.

Results

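Capillary-3 endothelial cells (ECs) are a subcluster of the endothelium of the fetal mouse femur, and they were described here across all measured genes. The members were the wild-type barcodes that the authors' cell table places at E18.5 and in the numbered EC cluster called capillary-3 here. They numbered 53 of the 435 E18.5 ECs listed in the copy of the table used (12.2%, exact 95% interval 9.26 to 15.6). The other listed ECs were 232 capillary-1, 56 arterial (AECs), 47 sinusoidal and 47 capillary-2 cells, and the listed cells came from a library of 5998 barcodes, out of 12823 barcodes in the 2 libraries. The study profiled single cells of fetal bone marrow (BM) by BD Rhapsody whole transcriptome analysis, in which each captured polyA transcript is counted once through a unique molecular identifier (UMI). Femoral marrow of C57BL/6 embryos was taken at E18.5 and depleted of lineage-committed haematopoietic cells. The first library was wild type. The second carried Bmx-CreER with Wls as its target, in which tamoxifen-controlled Cre under the Bmx promoter limits the deletion of Wls, a gene needed for Wnt secretion, to AECs, so the cells described here were not its target. The wild-type library held 22708005 UMIs and the other 24704991. The capillary-3 cells held 208027 UMIs, with a median of 3327 per cell (949 to 11173) and 1859 genes, against medians of 2692.5 UMIs and 1483 genes in the 382 other listed ECs, and of 721 and 701 genes once each cell was thinned to 1000 UMIs. There was 1 library per genotype and no replicate, and every interval given covers counting error alone.

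Capillaries make up most of the vessel bed that invades the primary ossification centre, and this bed grows by division of its ECs while arteries and sinusoids take on their own programmes. A dividing cell first licenses its replication origins and makes nucleotides and replication enzymes for S phase, then accumulates mitotic cyclins, condenses its chromosomes and builds a spindle in G2 and M. Many genes of that late window share a promoter element, the cell cycle genes homology region (CHR), often beside CCAAT boxes, while many S phase genes carry E2F sites.

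Endothelial markers were found in every capillary-3 cell. Cdh5 (chr8:104101613-104144504, GRCm38), which encodes the VE-cadherin of endothelial junctions, had 282 UMIs in the capillary-3 cells, a level of 1356 per 1000000 UMIs (CPM; 1202 to 1523). At least 1 Cdh5 UMI was found in 51 of the 53 cells (96.2%) at a median depth of 3327 UMIs, against 3 of 953 chondrocytes (0.315%) at a median depth of 2765. After each cell was thinned to 1000 UMIs, which left out 1 capillary-3 cell and 20 chondrocytes, these shares were 59.6% and 0.107%. The thinned Cdh5 share was 60% in capillary-2, 73.9% in sinusoidal, 79.7% in capillary-1 and 86.5% in arterial cells (2, 1, 5 and 4 left out). Emcn (chr3:137341062-137431069), the sialoglycoprotein endomucin of capillaries and veins, stood at 442 CPM in capillary-3 ECs and was found in 38 cells (71.7%, or 40.4% after thinning), against 2 chondrocytes (0.21%, and 0 of 933 after thinning, which allows a share of up to 0.322%). Its thinned share was 37.8% in capillary-2, 47.8% in sinusoidal, 33.0% in capillary-1 and 11.5% in arterial cells. Each capillary-3 cell held UMIs of 6 to 15 of the 15 endothelial identity genes, with a median of 12, while no chondrocyte held more than 4. The summed level of that list was 11652 CPM, a ratio of 0.851 (0.816 to 0.889) to the other listed ECs, and 15 of its 15 genes lay between a ratio of 0.5 and 2. Each of the other EC subclusters lay higher, from 13017 CPM in capillary-2 ECs to 15733 CPM in AECs. The label says less about what sets the subcluster apart: its leading genes were mitotic, and the capillary genes described further on lay near or below their level in capillary-1 ECs.

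Of 6503 genes with at least 30 UMIs over the listed ECs, 342 (5.26%) had a ratio of capillary-3 to the other ECs of at least 2, and 544 (8.37%) a ratio of at most 0.5. The median ratio was 0.978. Since the cells were grouped on these same transcriptomes, these differences describe the subcluster and are no test of it, although the authors kept annotated cell cycle genes out of the variable genes used for grouping. A gene near 30 UMIs can pass either limit on few counts: among genes with at least 100 UMIs, 92 were at or above 2 and 88 at or below 0.5. Of the 137 tested genes in the cell cycle lists, 93 had a ratio of at least 2. Against capillary-1 ECs alone, 242 of 5290 genes (4.57%) were at or above 2 and 260 (4.91%) at or below 0.5, and among the former were 44 of 47 G2/M genes but 8 of 29 S phase and 1 of 11 replication licensing genes.

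The 15 highest ratios were those of Casc5, Fam64a, Aurka, Shcbp1, Melk, Cdca3, Nusap1, Nek2, Trim59, Ckap2l, Cenpi, Ccnb1, Iqgap3, Ube2c and Aurkb, and 10 of the 15 belonged to a cell cycle list. Casc5 (now Knl1, chr2:119047119-119110497), the kinetochore scaffold that recruits the spindle checkpoint, had 38 UMIs in the 53 capillary-3 cells and 8 in the 382 other ECs (ratio 27.1, 12.5 to 67.3). Fam64a (now Pimreg, chr11:72042428-72047372), a mitotic regulator, had 32 and 9 UMIs (20.3, 9.46 to 48.3). Aurka (chr2:172356190-172370886), the kinase of the spindle poles, had 32 and 12 UMIs (15.2, 7.63 to 32.4). Most UMIs of all 3 genes thus lay in the 12.2% of listed ECs that were capillary-3. Among the more abundant of the 15, Nusap1, which bundles spindle microtubules, reached 486 CPM in capillary-3 ECs against 43.0 CPM in the others (11.3, 7.99 to 16.2). Ube2c, the ubiquitin-conjugating enzyme of the anaphase-promoting complex, reached 928 against 96.9 CPM (9.58, 7.56 to 12.2). Capillary-1 ECs came far below, with 55.5 CPM of Nusap1 and 129.9 CPM of Ube2c.

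Promoters of these genes were read because their transcripts were high together. In the RefSeq promoter set (GRCm38.p6, 250 bases before to 50 after the start), the letters TTTGAA on either strand, and likewise the variant TTCGAA, taken as a CHR, were found in 35 of 47 promoters of the G2/M list (74.5%), in 4 of 30 of the S phase list (13.3%) and in 19.2% of all 32851 promoters. CCAAT on either strand was found in 76.6%, 73.3% and 37.4%. The letters TTCCCGC, taken with the similar TTGGCGC and with TTCGCGC as E2F sites, were found on either strand in 17.0% of the G2/M promoters, 63.3% of the S phase promoters and 8.07% of all. Both lists were thus rich in CCAAT, while CHR letters marked the G2/M list and E2F letters the S phase list. Among the 283 promoters matched to the 342 genes with a ratio of at least 2, 34.3% held CHR letters and 28.6% E2F letters, against 13.2% and 16.1% of the 5171 promoters matched to all tested genes. The promoters of the 3 G2/M genes and the S phase gene with the highest ratios among those with an entry follow, 5′ to 3′ on the strand of the gene, with CHR and CCAAT letters in capitals. They are Aurka (chr2:172370521-172370820, minus strand), Cdca3 (chr6:124829926-124830225, plus strand), Nusap1 (chr2:119618048-119618347, plus strand) and Blm (chr7:80534949-80535248, minus strand).

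Aurka: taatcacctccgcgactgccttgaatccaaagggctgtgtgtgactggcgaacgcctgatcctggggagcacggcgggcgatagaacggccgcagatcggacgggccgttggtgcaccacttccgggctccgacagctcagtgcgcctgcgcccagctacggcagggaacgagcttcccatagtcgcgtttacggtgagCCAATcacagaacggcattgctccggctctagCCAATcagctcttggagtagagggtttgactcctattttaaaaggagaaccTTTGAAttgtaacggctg
Cdca3: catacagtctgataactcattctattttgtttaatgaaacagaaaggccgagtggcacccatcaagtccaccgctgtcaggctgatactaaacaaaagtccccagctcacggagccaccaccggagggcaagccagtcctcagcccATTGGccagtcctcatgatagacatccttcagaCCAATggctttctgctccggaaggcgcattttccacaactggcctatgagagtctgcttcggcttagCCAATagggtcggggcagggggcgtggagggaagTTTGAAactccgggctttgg
Nusap1: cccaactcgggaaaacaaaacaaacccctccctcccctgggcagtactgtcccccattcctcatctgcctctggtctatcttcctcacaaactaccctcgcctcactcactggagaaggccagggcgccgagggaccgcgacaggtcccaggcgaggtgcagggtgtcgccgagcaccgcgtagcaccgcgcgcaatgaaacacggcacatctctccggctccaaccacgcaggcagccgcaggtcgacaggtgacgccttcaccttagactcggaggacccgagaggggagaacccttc
Blm: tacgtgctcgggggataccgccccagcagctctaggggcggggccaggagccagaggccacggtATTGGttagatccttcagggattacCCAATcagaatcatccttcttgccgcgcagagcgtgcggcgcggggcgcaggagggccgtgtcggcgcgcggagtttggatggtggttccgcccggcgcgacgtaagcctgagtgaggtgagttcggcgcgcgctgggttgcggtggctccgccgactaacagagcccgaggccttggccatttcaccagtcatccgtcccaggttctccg

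The Aurka and Cdca3 windows each held TTTGAA downstream of the start, at positions 33 and 31, with CCAAT upstream at -51 and -19 in Aurka and at -71 and -4 in Cdca3, and ATTGG, its reverse complement, at -104 in Cdca3. Blm, a helicase of replication forks, held ATTGG at -186 and CCAAT at -161 and no CHR letters. None of the letters searched were in the Nusap1 window, and no E2F letters were in any of the 4. A match describes the sequence and was not tested as a binding site.

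Lists of the later phases were further above the other ECs than lists of the earlier phases. Replication licensing and origin firing genes summed to 1644 CPM in capillary-3 ECs (ratio 1.74, 1.53 to 1.96), and 5 of the 14 tested were at or above 2. The helicase subunits Mcm2 (ratio 1.09, 0.441 to 2.34) and Mcm4 (0.976, 0.618 to 1.49) and the licensing factor Cdc6 (1.06, 0.318 to 2.78) were near 1, while Mcm5 was at 2.45 (1.74 to 3.42). Licensing genes were thus unequal, with several at the level of the other ECs. The S phase list reached 4259 CPM (2.09, 1.94 to 2.26) with 15 of 33 tested genes at or above 2, and nucleotide synthesis 1346 CPM (2.85, 2.46 to 3.29) with 6 of 9. Rrm2 (chr12:24708254-24714146), the regulated subunit of ribonucleotide reductase, was at 303 CPM against 74.1 (4.09, 2.91 to 5.71), and Tk1, the thymidine kinase of dividing cells, at 153.8 against 33.7 (4.57, 2.78 to 7.45).

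The G2/M list reached 17791 CPM (17222 to 18374), a ratio of 4.75 (4.54 to 4.96), with 46 of 49 tested genes at or above 2 and none below 1. Its most abundant gene was Top2a (chr11:98992947-99024199), the topoisomerase that untangles chromosomes, with 284 UMIs or 7.67% of the list, so no single gene carried the sum. Top2a stood at 1365 CPM in capillary-3, 246 in capillary-1, 163.3 in sinusoidal, 109.1 in capillary-2 ECs and 54.9 in AECs. Mki67 (chr7:135689784-135716450), the chromosome surface protein used as a marker of dividing cells, stood at 865 CPM against 111.2 in the other ECs (7.78, 6.18 to 9.82). Condensin genes, which compact chromosomes, had a summed ratio of 3.72 (3.32 to 4.17), kinetochore and spindle checkpoint genes 4.26 (3.82 to 4.75), the chromosomal passenger complex 5.41 (4.65 to 6.28) and spindle kinesins 6.98 (6.03 to 8.09). All 7 tested kinesins, all 4 passenger genes, 12 of 13 kinetochore genes and 7 of 8 condensin genes were at or above 2. The exceptions were Zwint (1.05, 0.647 to 1.62) and the condensin II subunit Ncapd3 (1.83, 0.761 to 3.998). Some genes of each of these lists are also in the G2/M list, so their sums are not separate from it. Among them, Smc4 held 50.2% of the condensin UMIs and Birc5 50.9% of the passenger UMIs. In every one of these lists capillary-1 ECs came next and AECs last, as the plot of the cycle lists shows.

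**Figure D1:**
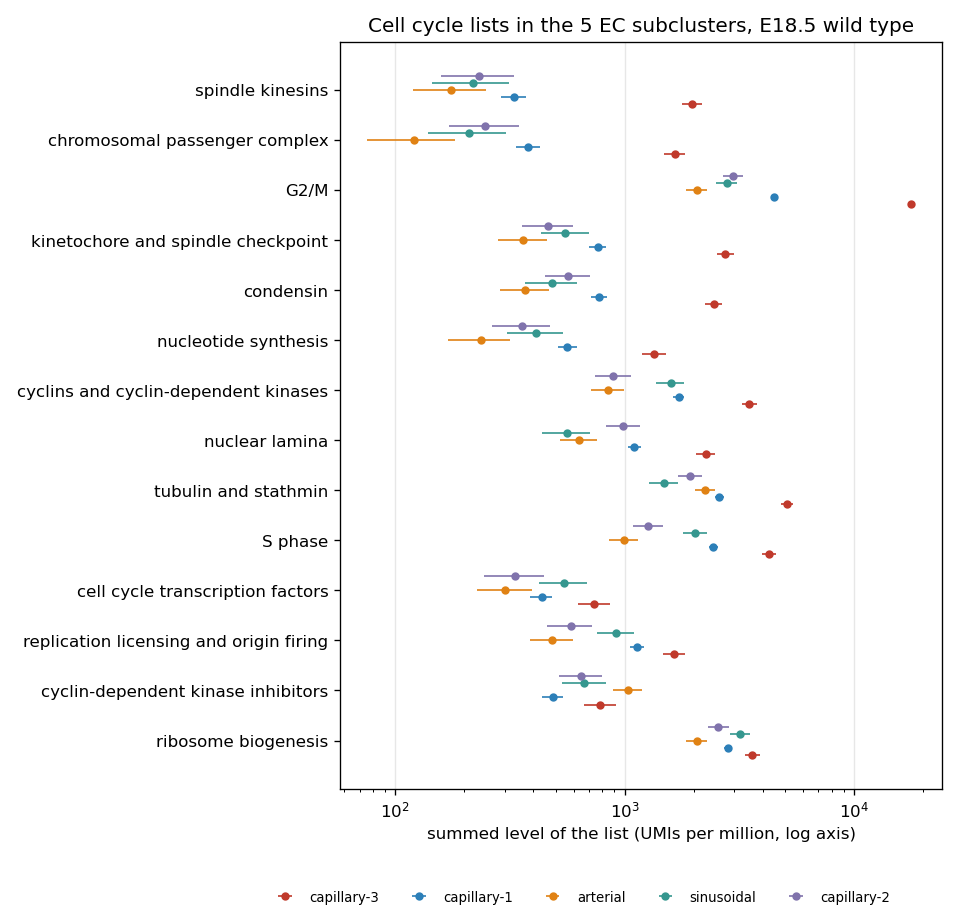
Summed level of 14 cell cycle and growth lists in each of the 5 EC subclusters of the wild-type library, in CPM on a log axis. Points are levels and bars exact Poisson 95% intervals for counting error; capillary-3 ECs lie highest in 13 lists, and in G2/M reach 17791 CPM against 4477 in capillary-1 ECs.

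Regulators of the cycle differed from gene to gene. The mitotic cyclins Ccna2 (697 CPM, ratio 7.59, 5.88 to 9.82), Ccnb1 (293 CPM, 9.67, 6.30 to 15.03) and Ccnb2 (255 CPM, 5.82, 3.89 to 8.70) and their kinase Cdk1 (947 CPM, 5.23, 4.29 to 6.37) were high. Of the D cyclins, which answer growth signals in G1, Ccnd1 was at 1.11 (0.91 to 1.34), Ccnd2 at 0.666 (0.433 to 0.987), and Ccnd3 had 1 UMI. The E cyclins, which act at the start of S phase, were higher on few counts: Ccne1 had 12 UMIs against 18 (3.80, 1.67 to 8.35) and Ccne2 8 against 16 (2.85, 1.06 to 7.07). Raised ratios were thus found for the mitotic cyclins and, on few UMIs, for the cyclins that act at the start of S phase. Among cyclin-dependent kinase inhibitors Cdkn1c (chr7:143458339-143461059), the imprinted brake on fetal growth, was at 187.5 CPM against 329 (0.569, 0.399 to 0.792), but capillary-1 ECs, at 204 CPM, were near it, and AECs (686), sinusoidal (521) and capillary-2 ECs (349) lay above. Cdkn1a, the p53 target, was at 2.57 (1.39 to 4.58) and Cdkn2d at 3.40 (2.16 to 5.30), so the inhibitors did not move as a group. Of the transcription factors, Foxm1, an activator of G2/M genes, had 13 UMIs against 18 (4.12, 1.86 to 8.90), and the repressor E2f7 28 against 47 (3.40, 2.05 to 5.54). The activators differed, with E2f1 at 7 against 53 UMIs (0.754, 0.289 to 1.66), E2f2 at 11 against 15 (4.18, 1.74 to 9.75) and E2f3 at 6 against 35 (0.978, 0.336 to 2.35).

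Structural genes of dividing cells were unequal too. Lmnb1, the B-type lamin, was at 629.7 CPM with a ratio of 4.82 (3.79 to 6.13), while the A-type lamin gene Lmna was at 1.26 (0.988 to 1.59). Among tubulins, Tuba1b was at 3.87 (3.28 to 4.56) and Tubb5 at 2.50 (2.17 to 2.87), whereas Tuba1a was at 1.15 (0.984 to 1.34). Ribosome biogenesis genes, a measure of growth rather than of division, summed to 1.33 (1.23 to 1.44) with none of 9 tested at or above 2. Outside the cycle lists, 12 genes with at least 200 UMIs passed 2, chosen after their values were seen: the highest were Prc1, which holds the spindle midzone (7.77, 5.91 to 10.3), D17H6S56E-5 (6.05, 4.87 to 7.53) and 2810417H13Rik (now Pclaf), a partner of PCNA at the replication fork (5.03, 4.03 to 6.27).

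All capillary-3 cells deep enough to compare held G2/M transcripts, in differing amounts. After thinning to 1000 UMIs, the 52 capillary-3 cells with enough depth held 5 to 46 G2/M UMIs, with a median of 17, against a median of 2 and a range of 0 to 26 in 370 other listed ECs (12 left out). For the S phase list the capillary-3 cells held 0 to 10 UMIs (median 4), against 0 to 16 (median 1). All 52 cells therefore had at least 5 G2/M UMIs, and 20 of them also had at least 5 S phase UMIs. Across the 52 cells the 2 sums had a Spearman correlation of -0.25, from cells of 1 library thinned to 1 depth. Marking cells at 5 UMIs, 138 listed ECs had that many of the G2/M list and 37.7% of them were capillary-3, with 66 in capillary-1, 8 in capillary-2, 7 in arterial and 5 in sinusoidal ECs. Of the 56 with 5 S phase UMIs, 35.7% were capillary-3. The cells with cycle transcripts thus lay partly outside the subcluster, mostly in capillary-1. The mark of 5 is also the lowest G2/M count of the capillary-3 cells, so all 52 had to reach it. A higher mark of 17 is their median, so the 27 capillary-3 cells that reached it follow from that choice. Outside the subcluster, 6 capillary-1 cells reached 17 G2/M UMIs and no cell of the other 3 subclusters did.

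**Figure D2:**
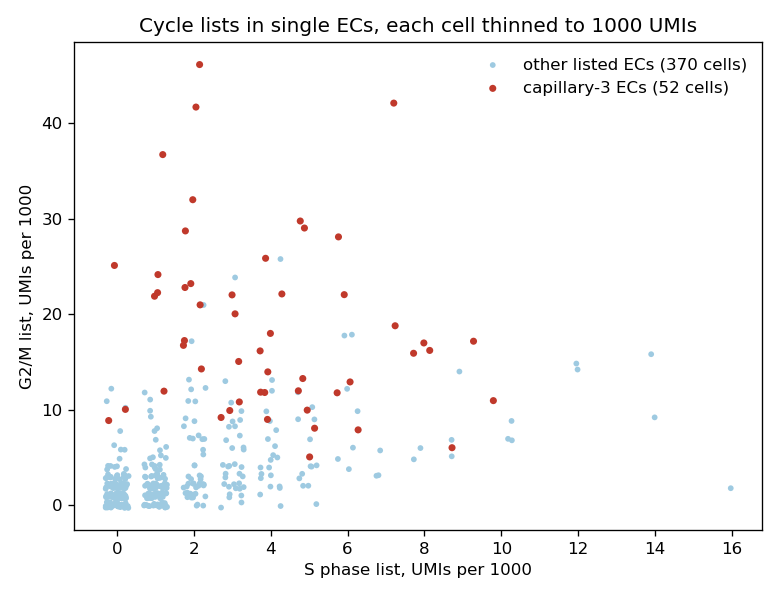
Each point is an EC of the wild-type library, thinned to 1000 UMIs and moved by a small offset so that points do not overlap; axes give the UMIs of the S phase and G2/M lists per 1000. The 52 capillary-3 cells lie at 5 to 46 G2/M UMIs, while the 370 other cells have medians of 2 G2/M and 1 S phase UMIs.

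Late mitotic transcripts were also read cell by cell. A UMI of Ccnb1, Cdc20, Plk1 or Aurka, which drive entry into and exit from mitosis, was found in 45 of 53 capillary-3 cells (84.9%) and in 34 of 232 capillary-1 cells (14.7%, median depth 2858). In OLCs-2, differentiated cells of the osteolineage, it was found in 6 of 102 cells (5.88%) at a median depth of 6026.5. Chondrocytes had it in 128 of 953 cells (13.4%) and capillary-2 ECs in 4 of 47 (8.51%). After thinning the shares were 50% in capillary-3, 4.85% in capillary-1, 1.03% in OLCs-2, 8.36% in chondrocytes and 6.67% in capillary-2 cells, with 1, 5, 5, 20 and 2 cells left out. The capillary-3 share lay above all 4 at equal depth.

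Capillary genes were abundant in capillary-3 ECs. The capillary list summed to 16056 CPM in capillary-3 ECs, against 19566 in capillary-1, 15206 in capillary-2, 12878 in sinusoidal ECs and 9266 in AECs, and none of its 11 tested genes passed 2 or 0.5. Aplnr (chr2:85136360-85139923), the apelin receptor of capillary and venous ECs, was at 999.9 CPM against 912 in capillary-1, and Plvap, which forms the diaphragms of fenestrae, at 1245 against 1291. Col4a1, a basement membrane collagen and the most abundant gene of the list (33.4%), was at 5365 against 6719 CPM, and Cd36, the fatty acid receptor, at 1889 against 2258.

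**Figure D3:**
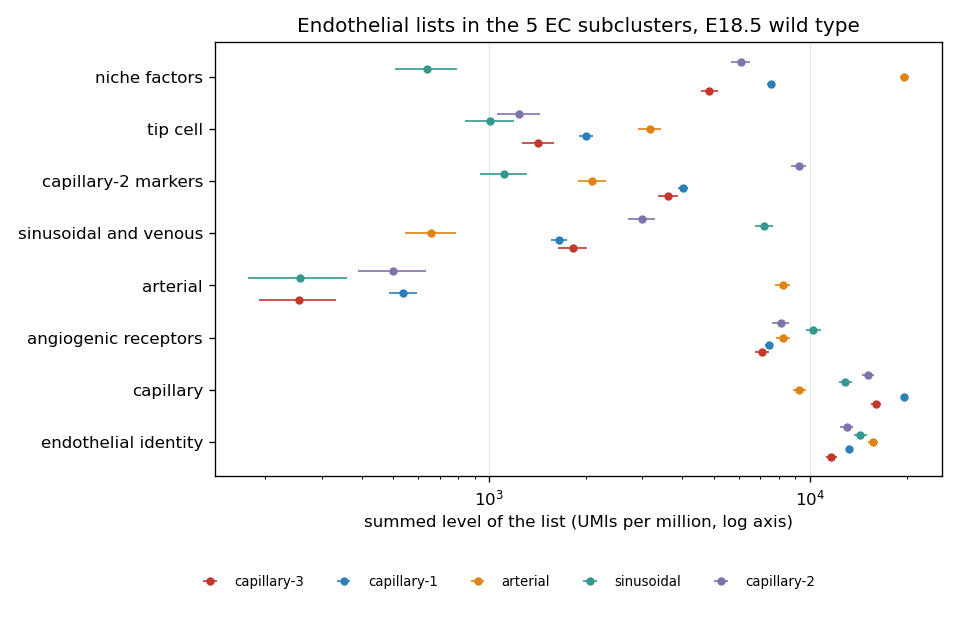
Summed level of 8 endothelial lists in each of the 5 EC subclusters of the wild-type library, in CPM on a log axis, with exact Poisson 95% intervals for counting error. Capillary-3 ECs lie beside capillary-1 ECs in the sinusoidal and venous list (1817 and 1651 CPM) and at the bottom with sinusoidal ECs in the arterial list (255 and 257 CPM).

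Arterial genes were at the level of sinusoidal ECs and below the 3 other subclusters. The list summed to 53 UMIs, 255 CPM (191 to 333), against 8207 CPM in AECs, 539 in capillary-1, 502 in capillary-2 and 257 in sinusoidal ECs, and all 12 tested genes had a ratio of at most 0.5 to the other listed ECs. An arterial UMI was found in 27 of the 53 cells. Its most abundant gene in capillary-3 ECs was Efnb2 (34.0% of the UMIs), and Gja5, Bmx, Hey2, Jag2, Cxcl12 and Tgfb2 had no UMI. Cxcl12 (chr6:117168535-117181368), the chemokine that retains haematopoietic stem cells, had 0 UMIs against 279, at least 16.3-fold lower with 3 counts as the limit of a 0, and Gja5, connexin 40 of arteries, 0 against 208, at least 12.1-fold lower. Almost all of these UMIs were in AECs, 266 of Cxcl12 and 206 of Gja5. Capillary-1 ECs had 12 Cxcl12 UMIs (16.2 CPM) and 2 Gja5 UMIs (2.71 CPM). A gene without a UMI in capillary-3 ECs has a limit of 14.4 CPM, so these 2 genes did not separate capillary-3 from capillary-1 ECs. The guidance receptor Unc5b (1 against 237 UMIs, 0.0241, 0.000607 to 0.135) and connexin 37, Gja4 (1 against 222, 0.0257, 0.000648 to 0.145) were almost as rare. The cells compared held 56 AECs, and arterial genes led the low end: 13 of the 15 lowest ratios among genes with at least 100 UMIs, those of Cxcl12, Gja5, Unc5b, Gja4, Sema3g, Stmn2, Vwf, Jag1, Bcam, Rgs16, Ltbp4, Mecom, Dll4, Col5a2 and Fbln5, belonged to genes highest in AECs and 2 to genes highest in capillary-2 ECs. Against capillary-1 ECs alone the arterial ratio was 0.473 (0.348 to 0.631) rather than 0.152 (0.113 to 0.199). Even beside the other capillary cells, arterial transcripts were scarcer in capillary-3 ECs.

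Sinusoidal and venous genes were at 1817 CPM, a ratio of 0.807 (0.722 to 0.899) to the other listed ECs but 1.10 (0.978 to 1.24) to capillary-1 ECs. Sinusoidal ECs reached 7178 CPM. The scavenger receptors Stab1 and Stab2 had 48 and 8 UMIs, and the latter came from 3 cells. Lyve1, a receptor of lymphatic and some sinusoidal ECs, had 20 UMIs in 2 cells, 15 of them in a single cell, with no Prox1 or Pdpn UMI, the other members of the lymphatic list. Capillary-2 markers summed to 3610.1 CPM, against 4024 in capillary-1 and 9206 in capillary-2 ECs, and the clotting factor gene Vwf had 2 UMIs against 104 (0.110, 0.0131 to 0.407). The subcluster thus shared no marker group of the other 3 vessel classes at their level.

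The tip cell list, genes of sprouting, was at 1418 CPM (0.715, 0.632 to 0.808). Capillary-3 ECs lay below AECs (ratio 0.448, 0.388 to 0.516) and capillary-1 ECs (0.709, 0.624 to 0.804) in this list, above sinusoidal ECs (1.41, 1.15 to 1.75), and within counting error of capillary-2 ECs (1.15, 0.947 to 1.39). In the list, 4 of 10 tested genes were at or below 0.5: Dll4, the Notch ligand of tip cells, had 11 against 222 UMIs (0.283, 0.139 to 0.516), Angpt2, which loosens vessels for sprouting, 2 against 37 (0.308, 0.0360 to 1.20), the chemokine receptor Cxcr4 0 against 58, at least 3.39-fold lower, and Unc5b is given above. Among 19 angiogenic receptors, 4 were at or below 0.5: Notch1 (0.259, 0.0305 to 0.994), Acvrl1 (0.458, 0.239 to 0.805), Calcrl (0.423, 0.214 to 0.759) and Tgfbr2 (chr9:116087695-116175363), the type II receptor of TGF-beta, at 221 against 499 CPM (0.443, 0.321 to 0.599). Against capillary-1 ECs alone, 1 of the 19 receptors was at or below 0.5, and 2 of 8 tip cell genes. Over all tested genes, the share at or below 0.5 was 8.37% against the other listed ECs and 4.91% against capillary-1 ECs. The 1 receptor of 19 is near the latter share, so it is no result about the receptors. The VEGF receptors Kdr (0.841, 0.732 to 0.964) and Flt1 (1.10, 0.944 to 1.28) were near 1. Niche factors summed to 0.572 (0.536 to 0.61), with 7 of 10 tested genes at or below 0.5, 1 above 1 and a median of 0.235. The AECs among the cells compared were at 19679 CPM, and against capillary-1 ECs alone the ratio was 0.644 (0.601 to 0.689) with 1 of 4 tested genes at or below 0.5. The ratio was 0.798 (0.727 to 0.875) to capillary-2 and 7.61 (6.08 to 9.66) to sinusoidal ECs. Of the niche factor UMIs 84.9% were Igf2 (4120 CPM against 7042, 0.585, 0.545 to 0.628), while the gene above 1 was Kitl, stem cell factor, at 418 CPM (1.003, 0.789 to 1.26). Glycolysis genes summed to 0.998 (0.9 to 1.10), with 1 of 11 tested genes, Hk1, at or below 0.5, near the share over all tested genes.

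With the cycle genes left out, most capillary-3 cells leaned to capillary-1. Each cell's log-normalised levels of 2281 other genes were correlated with the mean profiles of the 4 other subclusters, both relative to the average of the profiles, and 40 of 53 capillary-3 cells (75.5%) were nearest to capillary-1, 10 (18.9%) to sinusoidal, 2 to capillary-2 and 1 to arterial ECs. Capillary-1 cells themselves, each left out of its own profile, gave 72.8%, 19.0%, 6.03% and 2.16%. The 2 distributions were close, and 14 of the 53 placements rested on a difference in correlation under 0.05. The 10 cells nearest to the sinusoidal profile held all 8 Stab2 UMIs. Stab2 had too few UMIs to be among the genes used in placing, but other sinusoidal genes were used, so the cells were in part chosen for such transcripts. The G2/M level, from genes left out of the placing, was 21435 CPM in these 10 cells and 16840.3 CPM in the 40 nearest to capillary-1.

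The mitotic programme was set beside that of mitotic BM stromal cells (BMSCs), 231 listed cells of the same library, compared with the 1418 other listed BMSCs. Their G2/M level was 18333 CPM and that of capillary-3 ECs 17791, and the S phase levels were 4690.1 and 4259 CPM. The ratios differed more than the levels, 9.09 (8.87 to 9.32) for G2/M in BMSCs against 4.75 in ECs, with the other BMSCs at 2017 CPM and the other ECs at 3749. Spindle kinesins and the chromosomal passenger complex led in both. Of 6249 genes with 30 UMIs in both comparisons, 341 were at or above 2 in capillary-3 ECs and 359 (5.74%) in mitotic BMSCs, and 207 were shared, which is 60.7% of the former and 57.7% of the latter. All 46 G2/M genes and all 15 S phase genes past 2 in ECs were also past 2 in BMSCs. Both classes were grouped on these same transcriptomes, and the BMSC class was named as mitotic. Shared high cycle genes were thus likely beforehand and are no separate test. Ribosome biogenesis differed, at 1.33 in ECs and 0.971 (0.929 to 1.01) in BMSCs.

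**Figure D4:**
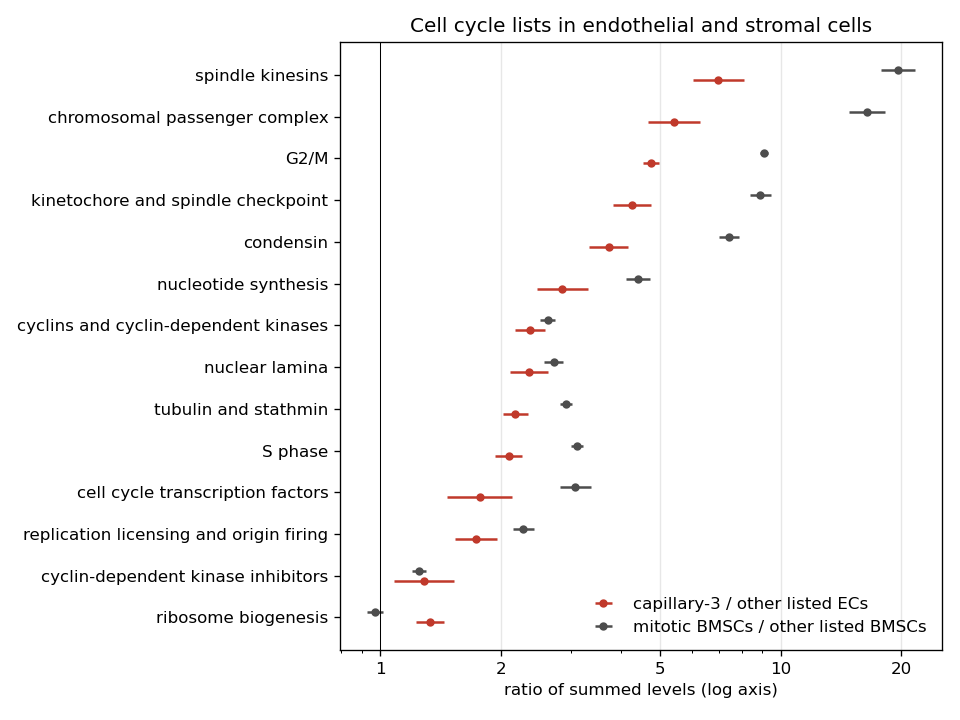
Ratio of the summed level of each list, on a log axis, for capillary-3 against the other listed ECs and for mitotic against the other listed BMSCs of the same library, with exact 95% intervals for counting error. Among the cell cycle and growth lists, the 6 highest have the same order in both, up to spindle kinesins at 6.98 in ECs and 19.6 in BMSCs. The order of the lower ones differs. The BMSC class was named as mitotic, so high cycle lists in it were likely beforehand.

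The second library gave a separate set of cells. Its 6620 cells past the filter were each placed with the nearest of 18 wild-type class profiles by 5150 genes in odd alphabetical places, and the genes in even places were kept for reading out. In all, 454 cells were nearest to an EC profile and 70 of these to capillary-3 (15.4%, 12.2 to 19.1), with a median depth of 4759.5 UMIs against 3061.5 in the other EC-nearest cells. The number depends on the measure of likeness: by Spearman in place of Pearson correlation, 16 of 354 EC-nearest cells were nearest to capillary-3, and the readout that follows is for the 70 cells alone. Placed in the same way without themselves, 46 of the 53 wild-type capillary-3 cells (86.8%) returned to capillary-3, and 20 capillary-1, 2 capillary-2 and 1 arterial cells were placed there too. The libraries shared 49 barcodes, 1 of them a capillary-3 cell and 2 of them among the 70. Cdh5, not used in placing, had a UMI in 69 of the 70 cells.

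On the genes kept back, 26 of the G2/M list summed to 8162 CPM in the 70 cells against 1739 in the other EC-nearest cells (ratio 4.69, 4.45 to 4.95). In the wild type the ratio was 4.67 (4.40 to 4.96). The placing used other genes of the G2/M and S phase lists, so the 70 cells were in part chosen for such transcripts. High levels of the cycle genes kept back were thus likely beforehand and are no separate test. For the S phase list the ratios were 2.01 (1.82 to 2.22) and 1.84 (1.63 to 2.09), and for the arterial list 0.287 (0.233 to 0.350) and 0.0989 (0.0574 to 0.159). The first 2 pairs overlapped in their intervals, and the arterial pair did not. Of 31 lists compared in this way, 12 had intervals apart, 6 of them with ratios on opposite sides of 1. Cyclins and cyclin-dependent kinases (2.26, 2.04 to 2.50, and 2.84, 2.52 to 3.20), nuclear lamina (1.44, 1.27 to 1.63, and 1.99, 1.73 to 2.28) and ribosome biogenesis genes (1.13, 1.02 to 1.24, and 1.41, 1.25 to 1.58) were less high in the second library, and tubulin and stathmin genes were higher (1.95, 1.78 to 2.13, and 1.51, 1.33 to 1.71). The capillary list was at 1.09 (1.05 to 1.13) in the second library and 0.949 (0.899 to 1.002) in the wild type, the capillary-2 markers at 1.07 (1.01 to 1.14) and 0.862 (0.787 to 0.942), the tip cell list at 1.10 (0.993 to 1.23) and 0.678 (0.573 to 0.796), niche factors at 0.875 (0.771 to 0.992) and 0.637 (0.529 to 0.762), and stromal genes at 0.188 (0.125 to 0.273) and 1.25 (0.825 to 1.84). Erythroid and osteoclast genes, the other 2 on opposite sides, rested on few UMIs. The cells were also chosen in different ways, by the authors' labels in the wild type and by nearest profile in the second library. When the listed wild-type ECs were grouped by nearest profile too, a comparison added after seeing the data, 69 fell to capillary-3 and 366 to the other subclusters, and 10 lists had intervals apart, 8 of them among the 12, with 4 on opposite sides of 1. The nuclear lamina (1.81, 1.59 to 2.06), ribosome biogenesis (1.37, 1.23 to 1.52), niche factor (0.689, 0.591 to 0.800) and capillary lists were no longer apart from the second library. The stromal ratio fell to 0.828 (0.546 to 1.22), below 1 as in the second library, but its interval stayed apart from the 0.188 (0.125 to 0.273) there. The endothelial identity list (0.878, 0.838 to 0.920, and 0.791, 0.750 to 0.835) and the chondrocyte list came apart. The wild-type ratio was then 4.83 (4.55 to 5.13) for G2/M, 2.19 (1.96 to 2.45) for S phase, 0.162 (0.115 to 0.221) for arterial, 0.871 (0.764 to 0.990) for tip cell and 1.003 (0.958 to 1.05) for capillary genes, and the arterial and tip cell lists stayed apart from the second library. The gene counts that follow use the authors' labels in the wild type. Of 3191 such genes with 30 UMIs in both libraries, 138 (4.32%) were at or above 2 in the second library and 186 (5.83%) in the wild type, and 97 were shared, 70.3% of the former and 52.2% of the latter. On the low side 181 (5.67%) and 266 (8.34%) were at or below 0.5, and 63 were shared, 34.8% of the former and 23.7% of the latter, so the libraries shared fewer of the low genes than of the high ones. All 23 tested G2/M genes were past 2 in the second library, whose cells were placed in part by other G2/M genes, and 22 in the wild type. Casc5 was at 11.4 (5.63 to 25.02), Fam64a at 12.2 (6.59 to 24.1) and Aurka at 11.7 (5.98 to 24.7). Cdkn1c was at 0.485 (0.372 to 0.624) against 0.569, in both beside all other ECs and not capillary-1 alone, whereas Cdkn1a was at 1.07 (0.597 to 1.83) in the second library. Wls itself had 3 UMIs in the wild-type capillary-3 cells and 7 in the 70 cells, and 9 in wild-type AECs against 2 in the 66 arterial-nearest cells, too few to check the label. With 1 library per genotype, the genotype and the library cannot be told apart, and where the authors' labels were used the choice of cells differs as well.

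**Figure D5:**
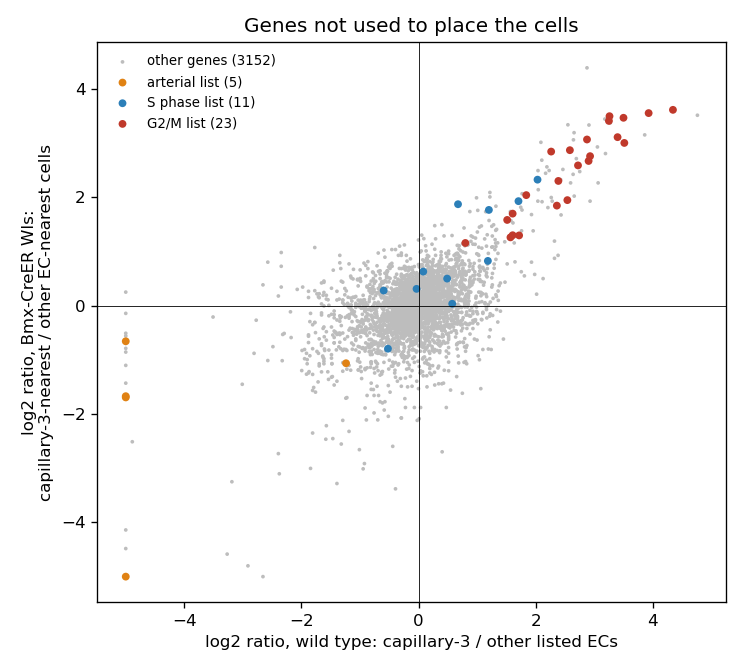
Each point is a gene kept out of the placing, with its log2 ratio of capillary-3 to the other listed ECs in the wild type across and of capillary-3-nearest to the other EC-nearest cells in the Bmx-CreER Wls library upwards; ratios below 1/32, 0 included, are drawn at the left or lower edge. All 23 G2/M genes lie above 2-fold in the second library, whose cells were placed in part by other G2/M genes. Arterial genes lie to the left of 0.

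Markers of other cell types were sparse in the capillary-3 cells. Haematopoietic genes had 4 UMIs (3 of 6 genes found, the most abundant Coro1a, with Ptprc, Cd52 and Laptm5 at 0), megakaryocyte genes 3 (2 of 5, led by Pf4) and osteoclast genes 10 (4 of 6, led by Ctsk), the last in 6 cells and against 13 UMIs in the other ECs (ratio 4.39, 1.72 to 10.8). Basophil and mast cell genes had 16 UMIs, 93.8% of them Gata2, which ECs also express, with 6 of 8 genes at 0. Stromal genes had 52 UMIs in 20 cells (5 of 6, led by Col1a2, Pdgfra at 0), chondrocyte genes 19 (7 of 8, led by Col2a1) and mural genes 23, 87.0% of them Abcc9, with Pdgfrb, Acta2, Notch3 and Myh11 at 0. Erythroid genes had 32 UMIs, 28 of them in a single cell. By Scrublet, a score of likeness to simulated doublets, 1 capillary-3 cell (1.89%) was among the highest-scoring 5% of the library, against 5 of the 382 other ECs (1.31%), and the median mitochondrial share was 6.28% against 6.52%. The part of these markers in the differences was not tested. Without the 5%, the G2/M ratio was 4.78, but so few ECs were left out that this value does not show their part.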

How the data were processed

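Single cells of 2 BD Rhapsody whole transcriptome libraries were read from UMI counts that the authors had deposited as a table of gene, cell barcode and count. The submitters' processing notes name bcl2fastq 2.19.1.403, UMI-tools 1.0.1, STAR 2.7.1a, featureCounts 1.6.4 of Subread and the build mm10. Cell classes were taken from the authors' cell table by barcode, of which the copy used holds a part. Clusters were read from it as numbers, and the class names were matched to those numbers. The UMI sums of 222 of the 435 listed ECs equalled those of that table, and the largest difference was 0.233%. All 53 capillary-3 cells passed the filter (over 200 and under 5000 genes, under 30% mitochondrial UMIs).

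Counts were summed over the cells of a class and divided by all UMIs of the class. Levels carry exact Poisson, shares Clopper-Pearson and ratios exact conditional binomial 95% intervals. Genes with at least 30 UMIs over the ECs compared were counted at a fold of 2. The genes named were the 15 with the highest ratio, the 15 with the lowest among genes with at least 100 UMIs, and members of the lists, without mitochondrial, haemoglobin, Xist and Y-linked genes. The members and lists were chosen with earlier results of these data known. Cells of the second library, and the leaning of capillary-3 cells, were placed by Pearson correlation of log-normalised levels (scale 10000) with class means, both centred on the average of those means. Cells with high Scrublet scores were kept, and leaving out the highest 5% was an alternative. Promoters and positions came from RefSeq (GRCm38.p6), where 377 of 383 listed and named genes had a position. Python 3.11.15, numpy 2.4.6, pandas 2.3.3, scipy 1.17.1, scanpy 1.11.5 and matplotlib 3.10.9 were used, and the ratios were checked on simulated counts.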

Additional observations from a re-analysis of the deposited data

How the results depend on the processing

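Of 89 alternatives, 61 left the value within its interval (counts within 1.5 times), 26 moved it and 2 turned its direction. The direction of the G2/M, S phase, endothelial identity, capillary and arterial ratios over all genes of each list held under all alternatives run. The G2/M ratio (4.75) was 4.54 in cells with at least 1000 UMIs and under 10% mitochondrial UMIs, 5.36 as a mean over cells, 5.50 after thinning to 1000 UMIs and 3.97 against capillary-1 ECs. The S phase ratio (2.09) was 2.37 as a mean over cells and 1.75 against capillary-1 ECs. Against capillary-1 ECs the capillary ratio was 0.821 and the arterial ratio 0.473, and the sinusoidal and venous ratio turned from 0.807 to 1.10. Thinning gave 0.110 for the arterial and 0.560 for the sinusoidal and venous list. Without AECs among the cells compared, an alternative chosen after seeing the data, the ratios were 4.39 for G2/M, 1.92 for S phase, 0.886 for capillary, 0.512 for arterial and 0.715 for sinusoidal and venous genes. The genes at or above 2 (342) numbered 751 with a minimum of 10 UMIs, 92 with 100 and 168 after thinning, where 9337, 2739 and 2831 genes were counted. Those at or below 0.5 (544) numbered 1290, 88 and 345, and 260 against capillary-1 ECs. By Spearman correlation 16 of 354 EC-nearest cells of the second library were placed in capillary-3, against 70 of 454, so their number depends on the measure, and the cause was not tested. Leaving out barcodes found in both libraries, also chosen after seeing the data, moved none of the 10 results it was run for past these limits, and it was not run for the genes kept back. On the genes kept back from the placing, grouping the listed wild-type ECs by nearest profile in place of the authors' labels, chosen after seeing the data too, moved the wild-type ratio from 1.84 to 2.19 for S phase, from 0.0989 to 0.162 for arterial and from 0.678 to 0.871 for tip cell genes, turned it from 0.949 to 1.003 for capillary genes and left that for G2/M within its interval, at 4.83. No paired analysis was possible because each genotype had 1 library and no test was run. With 53 cells, a gene without a UMI has a limit of 14.4 CPM.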
